A study of Drosophila melanogaster with 159 samples.

Results

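Isocitrate dehydrogenases turn isocitrate into 2-oxoglutarate, and the fruit fly Drosophila melanogaster carries the reaction out with enzymes that use different cofactors. Idh encodes the NADP-dependent enzyme, which works beside the citric acid cycle and yields NADPH, the reducing power for fatty acid synthesis and for keeping glutathione reduced. Idh3b encodes a subunit of the mitochondrial NAD-dependent enzyme, which catalyses a step of the citric acid cycle and feeds NADH to the respiratory chain. RNA of both genes was followed here through embryo, larva, metamorphosis, adult males and females by age, and tudor adults. The members were the probes whose annotation names Idh or Idh3b alone. This gave 1 probe for Idh (probe 1546, gene identifier 44291) and 1 for Idh3b (probe 5982, gene identifier 42586), out of 12588 probes, of which 4137 name a single gene and cover 3045 genes. Idh had a value on all 159 arrays and Idh3b on 158, the missing value being embryo 2-3 h replicate 1. No probe on the array names either gene together with another.

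Each cDNA array set the poly(A)+ RNA of whole animals against a reference RNA that the labels do not describe further. The animals were of the Canton S wild-type strain and comprised embryos in 30 collections of 1 h (60 arrays), larvae not sorted by sex at 10 ages from 24 h to an age titled Larvae_105h (20 arrays), female and male larvae of that last age (2 arrays each), animals at 18 times of metamorphosis from 0 to 96 h, counted from the white prepupa (35 arrays), and adult females and males at 8 ages from 0-24 h to 30 d (16 arrays per sex). Neighbouring embryo collections overlapped in time up to that of 6-7 h and followed one another without overlap after it. A further 4 arrays of females and 4 of males, at 0-24 h and 5 d, came from flies titled tudor, the name of a gene required for germ plasm and the formation of germ cells. Whether the flies themselves or the mothers were mutant is not stated, and the strain text of the same arrays still names Canton S. Every group held 2 arrays except 0 h of metamorphosis, which held 1, and nothing in the labels says that replicates are separate animals, so the p-values measure the spread between arrays, which may be technical. Where a comparison pooled neighbouring times under 1 mean, that spread also holds the differences between those times.

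Values are centred log2 ratios of sample over reference, each array set to a median of 0, and a difference of 1 is a 2-fold change. The ratio was written as red over green on all 159 arrays. On 13 of them the scan comment names the sample as the red dye, and on the other 146 the direction was taken as likely. Because each probe is read against its own amount in the reference, a value says where a gene stood relative to itself in other samples, and levels of Idh and Idh3b cannot be set against each other. Arrays gave 6722 to 8547 values each. The slides bore numbers of 2 forms, and fits took account of the form, named here slide set A for 57 arrays and slide set B for the other 102. In an earlier analysis 4 arrays resembled no other (replicate 1 of embryos of 2-3 h and 4-5 h and of metamorphosis at 12 h and 16 h), and 6 arrays bear a title and a scan comment that disagree. Markers of the germ line followed the labels, though the germ-line and egg genes overlapped between the wild-type sexes. Their mean level lay between -0.96 and 0.45 in wild-type males, and 1 of them, exu, was called higher in males than females (0.52). The mean level of 7 testis and sperm genes lay between 1.96 and 3.74 on the 16 arrays of wild-type males, between -2.36 and -0.93 on the 16 of wild-type females and between -1.12 and -0.62 on the 4 of tudor males, and that of 4 germ-line and egg genes lay between 0.25 and 2.21 in wild-type females and between -2.37 and -1.04 in tudor females.

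Idh RNA moved more in embryos than in any other stage, with group means spanning 6.14 against 1.47 to 2.49 elsewhere. Idh lay 13.8-fold lower at 4-6.5 h than in the first 2 h, and stood 27.4-fold higher again at 20-24 h. Idh3b went the same way over a narrower range, 2.43-fold down and 2.51-fold up. Early fly embryos live on RNA loaded by the mother, which is cleared as the embryo's own genes take over, and the embryo's own tissues form in the hours that follow. These were whole animals, in which fewer cells of a type and less RNA per cell cannot be told apart.

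On the 6 arrays of embryos of 0-2 h, Idh ran from 0.44 to 1.62 with a median of 0.86. At 4-6.5 h its 8 arrays ran from -3.44 to -2.54 with a median of -2.93, and at 20-24 h its 8 arrays ran from 1.09 to 2.27 with a median of 1.95. No array of one window reached the range of the next. The fitted difference between 4-6.5 h and 0-2 h was -3.79 ± 0.213 (SE, 14 arrays), with an adjusted p of 8.37e-09 in limma, a linear model with moderated variances and Benjamini-Hochberg adjustment over all probes tested. By p-value Idh stood in place 37 of 6996 probes in this comparison. At 20-24 h against 4-6.5 h the difference was 4.78 ± 0.204 (16 arrays, limma adjusted p 8.2e-12).

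Idh3b ran from 0.16 to 0.59 at 0-2 h with a median of 0.27. At 4-6.5 h it ran from -1.33 to -0.61 with a median of -0.93, and at 20-24 h from 0.10 to 0.53 with a median of 0.40. Its windows did not overlap either. The differences were -1.28 ± 0.138 (limma adjusted p 3.58e-06) and 1.33 ± 0.132 (limma adjusted p 1.54e-07). Changes of this kind were common on the array, since 32.2% of the probes tested were called higher and 20.7% lower at 4-6.5 h, and 35.1% higher and 34.8% lower at 20-24 h. The median of all probes tested rose by 0.19 at 4-6.5 h, and relative to that median the differences were -3.97 for Idh and -1.47 for Idh3b. Other tissues' genes moved over the same hours. At 4-6.5 h 3 of 4 germ-line and egg genes fell, with a median of -2.80, their mean level per array going from between 2.02 and 2.32 to between -0.77 and 0.07, and 6 of 7 muscle genes rose, with a median of 0.78. At 20-24 h all 7 muscle genes rose, with a median of 4.83, their mean level going from between -4.58 and -1.76 to between 0.09 and 1.43, and 3 of 4 germ-line and egg genes fell again, with a median of -0.88. Their part in the course of Idh and Idh3b was not tested. Without the array of 4-5 h that resembled no other, the differences were -3.67 and 4.67 for Idh and -1.36 and 1.42 for Idh3b. In slide set A alone, with 2 arrays at 0-2 h and 2 at 4-6.5 h, Idh differed by -4.47 and Idh3b by -1.25, with adjusted p-values of 0.0808 and 0.186, and no probe on the array was called.

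**Figure D1:**
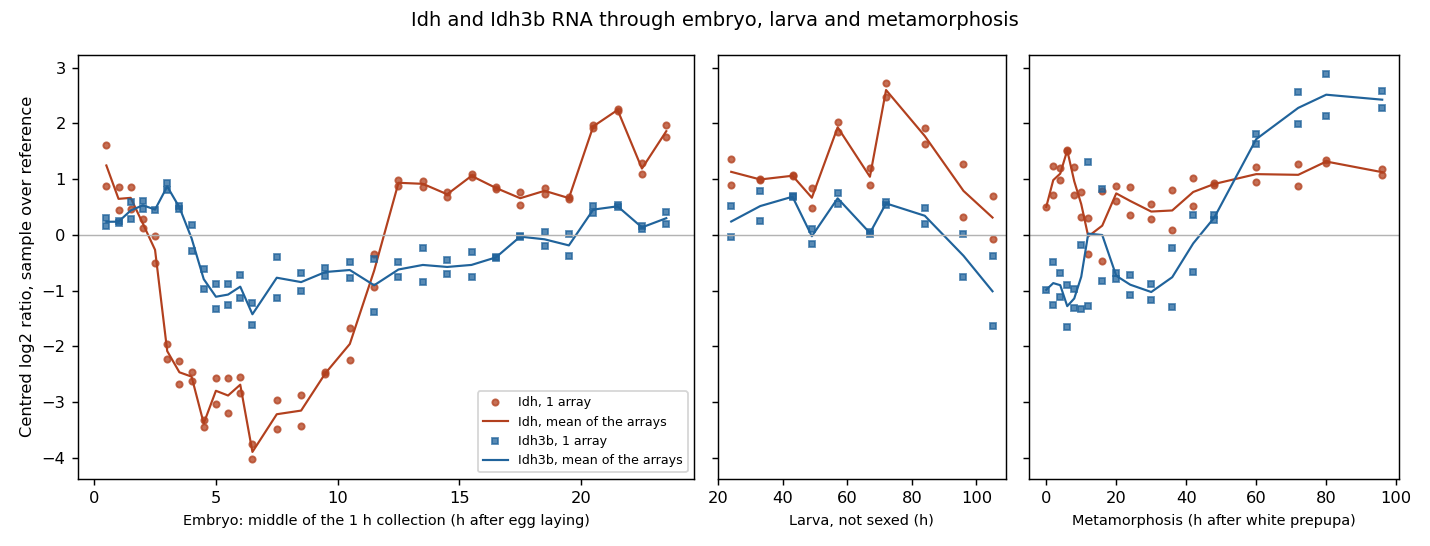
Centred log2 ratio of Idh (circles) and Idh3b (squares) on each array against the middle of the embryo collection, larval age and time of metamorphosis, with lines through the means of the arrays of a time. Idh falls from 0.86 (median, 0-2 h) to -2.93 (median, 4-6.5 h) and returns by 12-13 h, while Idh3b climbs to 2.42 (median, 72-96 h) late in metamorphosis.

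The genes left their early level at different collections. Idh read -0.03 and -0.51 in embryos of 2-3 h and -2.22 and -1.95 in those of 2.5-3.5 h, a drop of 1.82 between the means of these collections. Idh3b read 0.81 and 0.92 in the same embryos of 2.5-3.5 h, its highest mean of any embryo collection (0.87). Idh3b then stood at 0.52 and 0.47 at 3-4 h, 0.17 and -0.29 at 3.5-4.5 h, and -0.61 and -0.98 at 4-5 h. Both genes had their lowest embryo mean in the collection of 6-7 h, where Idh read -3.76 and -4.03 and Idh3b -1.23 and -1.62.

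The return was as uneven. Idh read -2.51 and -2.46 at 9-10 h, -1.67 and -2.25 at 10-11 h, -0.94 and -0.34 at 11-12 h and 0.99 and 0.88 at 12-13 h, and stayed between 0.54 and 1.09 on the 16 arrays from 12-13 h to 19-20 h. Idh3b read -0.59 and -0.75 at 9-10 h and -0.75 and -0.49 at 12-13 h, so it was still low when Idh had come back. The scan comment of the 11-12 h replicate 2 array gives 10-11 h. A later rise came to both at 20-21 h, where Idh went from 0.65 and 0.67 (19-20 h) to 1.98 and 1.92 and Idh3b from -0.39 and 0.01 to 0.51 and 0.40. The highest embryo mean of Idh was 2.24, at 21-22 h.

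Over all 30 collections Idh had an F of 97.8 (limma adjusted p 4.93e-22), place 3 of 6960 probes, and Idh3b an F of 9.83 (limma adjusted p 8.36e-09), in a test that called 79% of the probes. The arrays of neighbouring collections did not overlap at 22 of 29 steps for Idh and at 12 of 29 for Idh3b. Without any change, 2 arrays against 2 fail to overlap with a chance of 0.333, and the share over all probes was not computed. The Idh3b count includes the steps into and out of 2-3 h, where it had 1 array. Replicate arrays of an embryo collection differed by a median of 0.23 for Idh and 0.26 for Idh3b.

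Young larvae carried less Idh than late embryos. On the 6 arrays of larvae of 24-43 h Idh ran from 0.90 to 1.36 with a median of 1.03, overlapping only the low end of the late embryos, and the difference was -0.75 ± 0.18 (14 arrays, limma adjusted p 0.00302), a 1.68-fold fall. Idh3b ran from -0.05 to 0.79 with a median of 0.60, and its difference of 0.09 did not pass (95% interval -0.19 to 0.37, limma adjusted p 0.594). In this comparison 26% of the probes were called higher and 23% lower.

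Through larval life Idh moved up and down by age, with replicates that differed by a median of 0.30 and by more at the last ages. It read 0.48 and 0.85 at 49 h, 1.84 and 2.02 at 57 h, 0.89 and 1.20 at 67 h and 2.48 and 2.72 at 72 h, the highest mean it reached in any group (2.60). It then fell off, to 1.92 and 1.63 at 84 h, 0.31 and 1.27 at 96 h and -0.08 and 0.70 at the last age. Idh3b moved up and down at the same ages, reading -0.16 and 0.11 at 49 h, 0.56 and 0.75 at 57 h, 0.02 and 0.05 at 67 h, 0.59 and 0.54 at 72 h and -1.64 and -0.38 at the last age. Among the 10 unsexed ages the F was 12.0 for Idh (limma adjusted p 3.01e-04) and 5.33 for Idh3b (limma adjusted p 0.00772), in a test that called 49.9% of the probes. In slide set B alone neither passed (F of 4.79 and 2.54, adjusted p 0.234 and 0.428), and that fit called 16 probes on the whole array.

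Between larvae of 24-43 h and late larvae, those of the 3 oldest ages from 84 h on, the genes parted. Idh ran from -0.08 to 1.92 on the 6 older arrays, with a difference of -0.10 (95% interval -0.75 to 0.54, limma adjusted p 0.821). Idh3b ran from -1.64 to 0.49 with a median of -0.19, and its difference of -0.83 ± 0.312 missed the threshold (limma adjusted p 0.0578). That value passed in 4 other settings, among them slide set B alone (-1.13, adjusted p 0.0397) and a mean for every time point (adjusted p 0.0110). It ranged from -1.06 to -0.55 as single arrays were left out, and it passed without larva 24 h replicate 1 or without either larva 84 h array. Of the probes tested 13.9% were called higher and 17.2% lower.

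Larvae of the last age were also sorted by sex. Idh read 0.36 and -0.01 in females and 0.16 and 0.07 in males, so the sexes overlapped. Idh3b read -1.25 and -2.41 in females and -0.54 and -1.26 in males, where only the lower male array entered the female range. The Idh3b difference, male minus female, was 0.93 ± 0.401 and did not pass (limma adjusted p 0.415, 95% interval 0.08 to 1.78). Within the 2 slides that held both sexes Idh3b was 1.15 and 0.71 higher in the male. The scan comments of both replicate 1 arrays give 96 h, and without them the difference was 1.15. In this fit 3.57% of the probes were called higher in males and 0.0605% lower, and with the slide as a random block Idh3b passed (0.93, adjusted p 0.0428).

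At the onset of metamorphosis neither gene changed past the threshold. On the 7 arrays of 0-6 h Idh ran from 0.50 to 1.53 with a median of 1.21, and against late larvae its difference was 0.13 (95% interval -0.53 to 0.79, limma adjusted p 0.774). Idh3b ran from -1.65 to -0.48 with a median of -0.99, and its difference was -0.67 (95% interval -1.33 to -0.01, limma adjusted p 0.105). Without replicate 1 of the last larval age, unsexed, the Idh3b difference was -0.92 and passed. Calls on the array were 16% higher and 17.7% lower. All 7 muscle genes fell here, with a median of -2.56, and their part in the Idh3b value was not tested.

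The middle of metamorphosis was marked by a small dip of Idh and by a rise of Idh3b at its end. On the 10 arrays of 24-48 h Idh ran from 0.08 to 1.03 with a median of 0.67, a difference from 0-6 h of -0.48 ± 0.178 with a limma adjusted p of 0.047. This call was lost in 9 of the other settings, and in 11 of 17 fits with 1 array left out. Idh3b ran from -1.29 to 0.37 with a median of -0.69, and its difference of 0.51 did not pass (limma adjusted p 0.15). Of the probes tested 15% were called higher and 15.2% lower.

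Between 24-48 h and 72-96 h Idh3b rose 7.39-fold. Its 6 arrays at 72-96 h ran from 1.99 to 2.89 with a median of 2.42, all above the highest array of 24-48 h. The difference was 2.89 ± 0.275 (16 arrays, limma adjusted p 1.03e-06), place 33 of 6868 probes, where 18.4% were called higher and 15.5% lower. The rise showed between 36 h (-0.23 and -1.29), 42 h (-0.67 and 0.37), 48 h (0.35 and 0.26), 60 h (1.63 and 1.81) and 72 h (1.99 and 2.57), and the highest mean of any group lay at 80 h (2.52). It was 2.57 in slide set A and 3.09 in slide set B.

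Idh rose far less over the same hours. It ran from 0.88 to 1.34 at 72-96 h with a median of 1.23, a difference of 0.58 ± 0.158 (limma adjusted p 0.00963) and a 1.49-fold rise. With quantile normalization this was 0.36 (adjusted p 0.175) and in slide set B alone 0.58 (adjusted p 0.109). Muscle genes moved with Idh3b. All 7 measured muscle genes rose between these windows, with a median of 3.82 against -0.02 for all probes tested, and their mean level per array went from between -3.60 and -1.10 to between 1.62 and 2.81. The part of muscle in the Idh3b rise was not tested.

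Across all 18 times of metamorphosis Idh3b differed (F of 8.07, limma adjusted p 4.02e-04) and Idh did not pass (F of 2.19, limma adjusted p 0.135), in a test that called 19.7% of the probes. At 12 h and 16 h the arrays that resembled no other read 1.31 and 0.82 for Idh3b, against -1.27 and -0.83 in replicate 2, and -0.35 and -0.46 for Idh, against 0.29 and 0.79. Without them the F was 18.5 for Idh3b (adjusted p 3.97e-06) and 2.08 for Idh (adjusted p 0.144). The F of Idh3b was 4.58 once replicate 1 was left out at 20 to 80 h (adjusted p 0.0692), with 493 probes called on the array against 1355 with them. Neighbouring times did not overlap at 7 of 17 steps for Idh and at 2 of 17 for Idh3b, from 48 h to 60 h and from 60 h to 72 h. The chance of this without any change is again 0.333 for 2 arrays against 2, and the share over all probes was not computed. The Idh count includes the step from 0 h, which held 1 array. These counts therefore do not rank the genes.

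Newly eclosed adults came down from the late pupal level of Idh3b, though not past the threshold. Its 4 arrays at 0-24 h read 0.87 and 0.45 in females and 1.56 and 2.32 in males, against 1.99 to 2.89 at 72-96 h of metamorphosis, a difference of -1.05 ± 0.349 (limma adjusted p 0.124). With a mean for every time point it passed (-1.04, adjusted p 0.0432). Idh read 0.32 and 1.25 in females and 0.85 and 0.91 in males, a difference of -0.33 (95% interval -0.84 to 0.19, limma adjusted p 0.459). Few probes were called here, 1.11% higher and 1.47% lower. Of the 7 muscle genes 3 fell, up (-2.46), Prm (-1.41) and Obsc (-1.73), with a median of -0.95 over the 7, and their part in the Idh3b value was not tested.

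**Figure D2:**
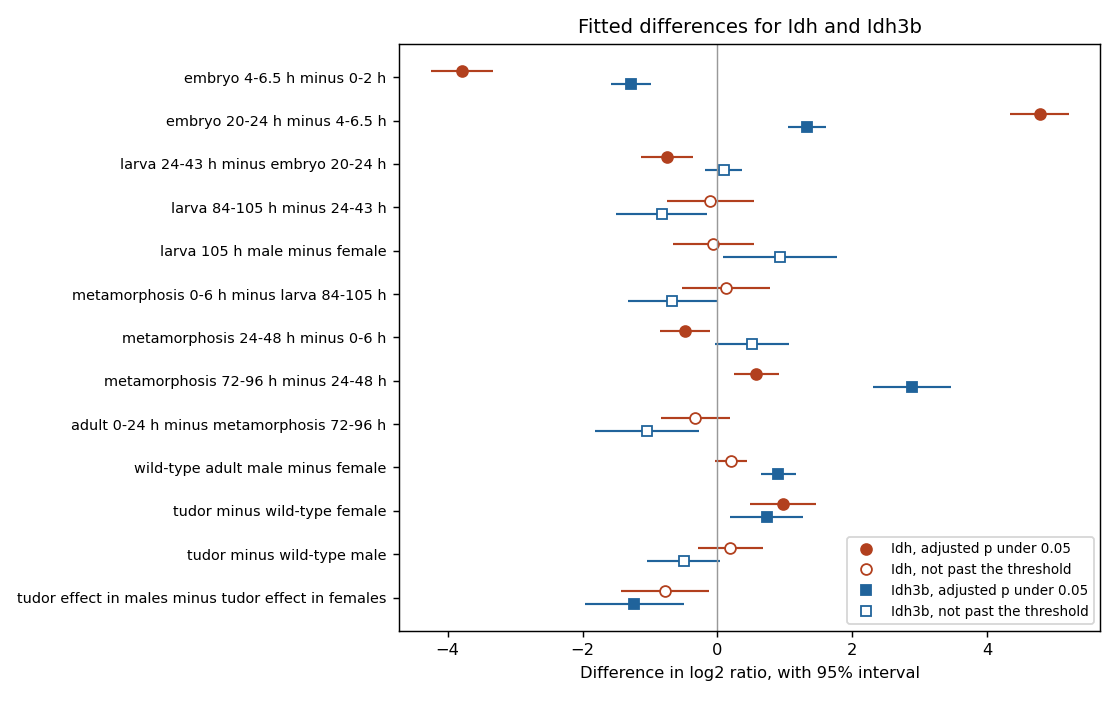
Fitted difference in log2 ratio for Idh (circles) and Idh3b (squares) in each comparison of windows, sexes and tudor flies, with 95% intervals. Filled symbols passed an adjusted p of 0.05, and the largest differences are those of Idh in the embryo (-3.79 and 4.78) and of Idh3b at 72-96 h of metamorphosis (2.89).

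Adult males carried more Idh3b than females, while the smaller difference of Idh passed in some settings only. On the 16 arrays of wild-type females Idh3b ran from -0.38 to 0.93 with a median of 0.36, and on the 16 of males from 0.52 to 2.32 with a median of 1.09. The ranges overlapped, and all 16 male arrays lay above the female mean of 0.24. The difference, male minus female with age in the model, was 0.90 ± 0.127 (32 arrays, limma adjusted p 2.97e-07), 1.87-fold. It was 0.80 in slide set A and 0.95 in slide set B. Within the 12 slides that held a male and a female sample of one age, Idh3b was higher in the male on all 12, by 0.14 to 1.87 with a mean of 1.03.

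For Idh the female arrays ran from 0.14 to 1.64 with a median of 0.95 and the male arrays from 0.29 to 1.50 with a median of 1.12. The difference of 0.20 did not pass (95% interval -0.04 to 0.44, limma adjusted p 0.12) and turned to -0.03 without centring and -0.02 with quantile normalization. It was 0.52 in slide set A (adjusted p 0.045) and 0.05 in slide set B (adjusted p 0.755). Within the 12 slides that held both sexes the male was higher on 9, and the mean over the 12 was 0.25. An exact permutation test over these slides gave a two-sided p of 0.0459, which was not adjusted over probes, unlike the limma values. Sex differences were the rule among the probes tested, with 39.9% called higher in males and 34.1% lower. The 7 testis genes all stood higher in males, with a median of 4.29, and the 7 muscle genes did too, with a median of 1.10. Their part in the Idh3b difference was not tested.

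With age, Idh3b fell in males. Its means were 1.94 at 0-24 h (1.56 and 2.32), 1.37 at 3 d and 1.53 at 5 d (1.14 and 1.93). They then stood at 0.90 at 10 d, 0.88 at 15 d, 0.83 at 20 d, 0.77 at 25 d (0.52 and 1.02) and 0.94 at 30 d (0.92 and 0.96). The lower level was thus reached by 10 d, with little change after it. All wild-type adult arrays of 20 d and older belonged to slide set B. The slope was -0.39 ± 0.101 per 10 days (32 arrays, limma adjusted p 0.0104). It was -0.31 without flies of 0-24 h (adjusted p 0.0863) and -0.26 with quantile normalization (adjusted p 0.0795), and both missed the threshold. In females the slope of Idh3b was -0.08 (95% interval -0.29 to 0.12, limma adjusted p 0.651). The slopes of the sexes differed by -0.31, male minus female, which did not pass (limma adjusted p 0.208). In females Idh3b was lowest at 10 d (-0.24 and -0.32) and stood at 0.93 and 0.35 at 30 d.

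Idh showed no slope that passed in either sex, 0.08 per 10 days in females (95% interval -0.12 to 0.27, limma adjusted p 0.656) and -0.07 in males (95% interval -0.26 to 0.13, limma adjusted p 0.71), nor did these differ past the threshold (-0.14, limma adjusted p 0.578). Over the array the female slopes of 3.85% of the probes were called higher than 0 and of 4.85% lower, the male slopes of 5.09% and 5.76%, and the slope difference of 0.554% and 0.816%. Of the 7 muscle genes 5 fell with age in females and 4 in males, and 4 of the 7 testis genes fell in males. Whether these move with the Idh3b slope was not tested.

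**Figure D3:**
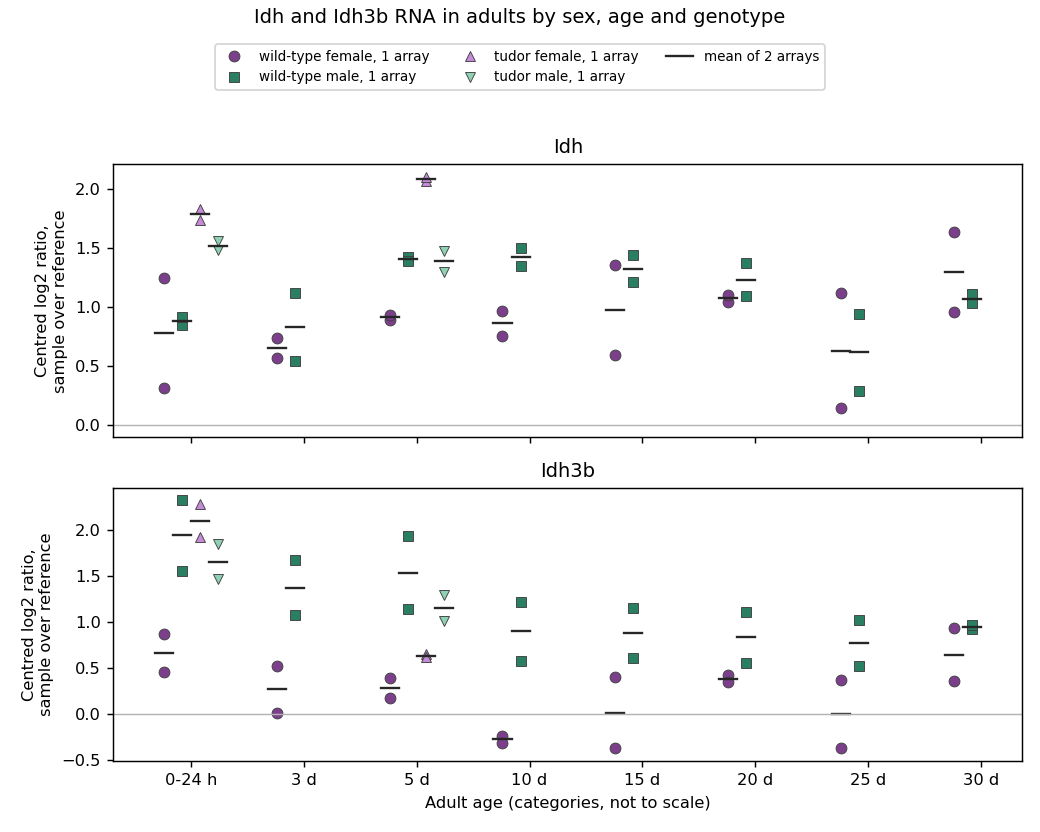
Centred log2 ratio of Idh (upper panel) and Idh3b (lower panel) on each adult array by age category, sex and genotype, with a bar at the mean of the 2 arrays of a group. For Idh3b the male mean lies above the female mean at all 8 ages, and tudor females lie above wild-type females for Idh at both ages.

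Tudor females carried more Idh than wild-type females. At 0-24 h Idh read 1.74 and 1.84 in tudor females against 0.32 and 1.25 in wild-type females, and at 5 d 2.07 and 2.11 against 0.89 and 0.93. All 4 tudor arrays lay above all 4 wild-type arrays of these ages. The tudor effect was 0.97 ± 0.236 (fit to 40 arrays, limma adjusted p 0.00192), 1.96-fold. The median of all probes tested rose by 0.18 in this comparison, and Idh lay 0.79 above it. With quantile normalization Idh differed by 0.31 (adjusted p 0.3), 0.30 above the median, and the call was lost. At 0-24 h alone the difference was 0.75 (adjusted p 0.175) and at 5 d alone 1.17 (adjusted p 0.0183).

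Idh3b rose in tudor females too, on weaker ground. At 0-24 h it read 2.29 and 1.92 against 0.87 and 0.45, and at 5 d 0.65 and 0.61 against 0.17 and 0.39. The effect was 0.73 ± 0.264 (limma adjusted p 0.0303), made up of 1.35 at 0-24 h and 0.10 at 5 d, neither of which passed when fitted alone (adjusted p 0.0677 and 0.818). Without tudor female 0-24 h replicate 1 it was 0.39, the lowest of the fits with 1 array left out, and it missed the threshold there, without tudor female 0-24 h replicate 2 and without wild-type female 0-24 h replicate 2. Without centring it was 0.57 (adjusted p 0.144) and with quantile normalization 0.33 (adjusted p 0.286). Probes were called higher in tudor females for 24.2% of those tested and lower for 13.6%.

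In tudor males neither gene differed past the threshold. Idh read 1.48 and 1.56 at 0-24 h and 1.48 and 1.30 at 5 d, against 0.85 and 0.91 and 1.42 and 1.39 in wild-type males, an effect of 0.19 (95% interval -0.29 to 0.68, limma adjusted p 0.606). Idh3b read 1.47 and 1.84, and 1.29 and 1.01, against 1.56 and 2.32, and 1.14 and 1.93, an effect of -0.50 (95% interval -1.04 to 0.04, limma adjusted p 0.181). Of the probes tested 10.5% were called higher and 12.2% lower. The effects of tudor in the sexes differed for Idh3b, by -1.23 ± 0.357, male minus female (limma adjusted p 0.0126), a call lost without centring (-1.07, adjusted p 0.0584) and with quantile normalization (-0.55, adjusted p 0.24). For Idh they differed by -0.78, which did not pass (95% interval -1.43 to -0.13, limma adjusted p 0.0822). This difference was called higher for 7.84% of the probes and lower for 13.7%.

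Other tissues' genes moved beside these effects. In tudor females 3 of 4 germ-line and egg genes fell, with a median of -3.84, 6 of 7 muscle genes rose, with a median of 1.59, and apolpp, the fat body's lipoprotein gene and the only fat body marker measured, rose by 1.84. In tudor males all 7 testis genes fell, with a median of -3.91, and 4 of 7 muscle genes rose, with a median of 0.79. Their part in the values of Idh and Idh3b was not tested. All tudor arrays belonged to slide set B, where the effects in females were 0.85 for Idh (adjusted p 0.0379) and 0.95 for Idh3b (adjusted p 0.0322).

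Whether both genes changed by the same amount was tested on the difference of their values within each array, Idh minus Idh3b, with permutation tests over the arrays (two-sided, exact except in adults of both sexes, where 100000 resamples were drawn) and Benjamini-Hochberg adjustment over 12 comparisons. In the embryo the change of Idh exceeded that of Idh3b by 2.51 downward at 4-6.5 h and by 3.42 upward at 20-24 h (differences of -2.51 and 3.42, adjusted permutation p 0.0016 and 0.0015). The genes also parted from late embryo to young larva (-0.88, p 0.0016, exact), from young to late larva (0.73, p 0.0035, exact), into metamorphosis (0.81, p 0.0035, exact), to its middle (-0.98, p 0.00206, exact) and to its end (-2.37, p 0.0015, exact). The adult sexes differed as well (-0.70, adjusted permutation p 0.0016).

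Pupa to adult (0.77, adjusted exact p 0.14), tudor in females (0.19, adjusted exact p 0.743) and tudor in males (0.64, adjusted exact p 0.206) did not pass. Larval sex could not, since 2 arrays against 2 allow no exact p below 0.333. Slide set B alone kept the direction and the call of each passing comparison except the step into metamorphosis (0.68, adjusted exact p 0.0857).

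The means over arrays were ordered for 12 sets, namely windows of embryo, larva and metamorphosis, and adults by sex and genotype. These sets leave out other times, among them larvae of 72 h, where Idh had its highest group mean (2.60). Tudor flies were of 0-24 h and 5 d, wild-type adults of all 8 ages. Within the sets Idh stood highest in tudor females (1.94 ± 0.18, SD, n = 4) and embryos of 20-24 h (1.81 ± 0.42, SD, n = 8), followed by tudor males (1.46 ± 0.11, SD, n = 4). The next 8 windows lay close together, from 1.17 ± 0.17 (SD, n = 6) at 72-96 h of metamorphosis to 0.63 ± 0.32 (SD, n = 10) at 24-48 h, each apart from its neighbour by less than the larger SD of the pair. Embryos of 4-6.5 h stood far below at -2.94 ± 0.36 (SD, n = 8). Idh3b stood highest at 72-96 h of metamorphosis (2.41 ± 0.33, SD, n = 6), ahead by mean of tudor males (1.40 ± 0.35, SD, n = 4), tudor females (1.37 ± 0.86, SD, n = 4) and wild-type males (1.15 ± 0.51, SD, n = 16). Single arrays of tudor females (up to 2.29) and wild-type males (up to 2.32) lay within the range of 72-96 h, which began at 1.99. Wild-type males of 0-24 h and 5 d, the ages of the tudor flies, averaged 1.74 ± 0.51 (SD, n = 4), above tudor males. Its lowest sets among the 12 were embryos of 4-6.5 h (-0.98 ± 0.25, SD, n = 8) and 0-6 h of metamorphosis (-1.01 ± 0.38, SD, n = 7), where Idh stood at 1.10 ± 0.39 (SD, n = 7). Female larvae of the last age, which were not among the sets, had a lower Idh3b mean (-1.83, n = 2).

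As a description over group means, the courses of Idh and Idh3b correlated with Pearson's r of 0.443 and Spearman's rho of 0.578 over all 80 groups. Within stages r was 0.554 over 30 embryo collections, 0.694 over 10 larval ages, 0.34 over 18 times of metamorphosis, 0.391 over 8 ages of females and -0.123 over 8 ages of males. The r was also taken without the 2 groups whose Idh mean lay farthest from its median, a choice in which Idh3b played no part. It was then -0.131 over ages of females and -0.515 over those of males, so the positive female value rests on those groups. Over all 80 groups it was then 0.4. All these points share the reference RNA, and neighbouring embryo collections up to that of 6-7 h share time.

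The genes whose course was most like that of Idh, among 2894 genes with a probe of their own and values in at least 72 groups, were Got2 (r 0.909), the mitochondrial aspartate aminotransferase, Mtpbeta (r 0.904), a subunit of the enzyme complex that breaks down long-chain fatty acids, Tspo (r 0.867), a protein of the outer mitochondrial membrane, Tpi (r 0.86), the triose phosphate isomerase of glycolysis, and Vha55 (r 0.858), a subunit of the vacuolar proton pump. Idh3b came at place 579. In the embryo alone the r of these genes with Idh ranged from 0.909 (Tpi) to 0.967 (Tspo). It was lower in other stages, from 0.169 (Tspo) to 0.881 (Mtpbeta) in larvae, from -0.124 (Tspo) to 0.749 (Tpi) in metamorphosis and from 0.415 (Got2) to 0.644 (Mtpbeta) in adults.

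For Idh3b the most like were ScsbetaA (r 0.769), a subunit of succinyl-CoA synthetase in the citric acid cycle, Obsc (r 0.765) and fln (r 0.751), which encode muscle proteins, ATPsynO (r 0.753), a subunit of ATP synthase, and CG14823 (r 0.745 over 79 groups). Idh came at place 345. ScsbetaA kept an r of 0.866 in the embryo and 0.883 in metamorphosis, whereas Obsc and fln had 0.398 and 0.284 in the embryo and 0.932 and 0.956 in metamorphosis.

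Other genes of the same metabolism were read from fixed lists, of which the array measured only part. Of 29 genes in the citric acid cycle list 8 had a probe of their own, of 6 genes in a list of NADPH production 3, and of 23 genes of entry to and exit from the cycle 7. The remaining subunit genes of the NAD-dependent enzyme, Idh3a and Idh3g, were not analysed here, as no probe named them alone. Aspartate aminotransferase Got2 and Mtpbeta moved like Idh in the embryo, with -3.38 and -3.0 at 4-6.5 h and 3.32 and 2.35 at 20-24 h, all past the test. ScsbetaA moved with both (-1.94 and 2.80). Got2, Mtpbeta and ScsbetaA were named above for their likeness to Idh or Idh3b over these same arrays. Their agreement, here and in the comparisons below, is therefore a description and no separate support.

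The lists were mixed at 4-6.5 h, where 32.2% of all probes tested were called higher and 20.7% lower. Of 6 citric acid cycle genes tested 4 were higher and 1 lower, with a median of 0.76 against 0.19 for all probes, and of 6 entry and exit genes 2 were higher and 2 lower. ACC, the acetyl-CoA carboxylase of fatty acid synthesis, rose by 1.71. In the list of NADPH production Men-b, a malic enzyme, fell by 1.54, and Men, a cytosolic malic enzyme, read -0.13 and did not pass. The list's other measured gene, Nmdmc, rose by 1.12, though the folate-pathway dehydrogenase it encodes is named for its use of NAD. At 20-24 h, where 35.1% of all probes were called higher and 34.8% lower, Men rose by 2.34, Men-b by 2.86 and Nmdmc by 0.53. Of the cycle genes 3 of 6 were higher and 0 lower, and of the entry and exit genes 4 of 5 were higher and 1 lower, CPT2 (-0.97), the mitochondrial carnitine palmitoyltransferase.

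At 72-96 h of metamorphosis ScsbetaA (1.85) and Men-b (1.85) rose with Idh3b, as did Got2 (0.88) and CPT2 (0.47). They made up 1 of 6 cycle genes, 1 of 3 genes of the NADPH list and 2 of 6 entry and exit genes, where 18.4% of all probes were called higher, and none of these lists had a gene called lower. In tudor females, where 24.2% of all probes were called higher and the median of all probes rose by 0.18, 2 of 5 cycle genes, 2 of 3 genes of the NADPH list (Men 1.63, Men-b 0.73) and 3 of 6 entry and exit genes (ACC 1.43, Mtpbeta 1.05, PCB 0.73, the pyruvate carboxylase) rose, and 0 in the lists fell. ScsbetaA rose there by 0.60.

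Part of the citric acid cycle list was high in wild-type males and low in females and in tudor males. CG32026 and CG3483, which the annotation used here names by identifier alone, averaged 2.06 ± 0.53 and 2.29 ± 0.70 on the arrays of wild-type males (SD, n = 16), and -2.31 ± 0.55 and -2.15 ± 0.64 on those of wild-type females (SD, n = 16). In tudor males they averaged -0.72 ± 0.40 and -1.30 ± 0.55 (SD, n = 4). The tudor effect in males was -3.54 for CG32026 and -4.01 for CG3483, both past the test, and larval males of the last age stood above larval females by 2.30 and 1.60, also past it. CG14740, another identifier of the list, followed them (3.73 between the adult sexes and -3.43 in tudor males). Of 5 cycle genes tested 4 were higher in males than females and 0 lower, where 39.9% of all probes were called higher, and 4 of 5 fell in tudor males, where 12.2% of all probes were called lower. ScsbetaA was among them (0.93 and -1.02). Idh3b, at 0.90 and -0.50, showed the sex difference on a smaller scale, and its difference in tudor males did not pass.

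**Figure D4:**
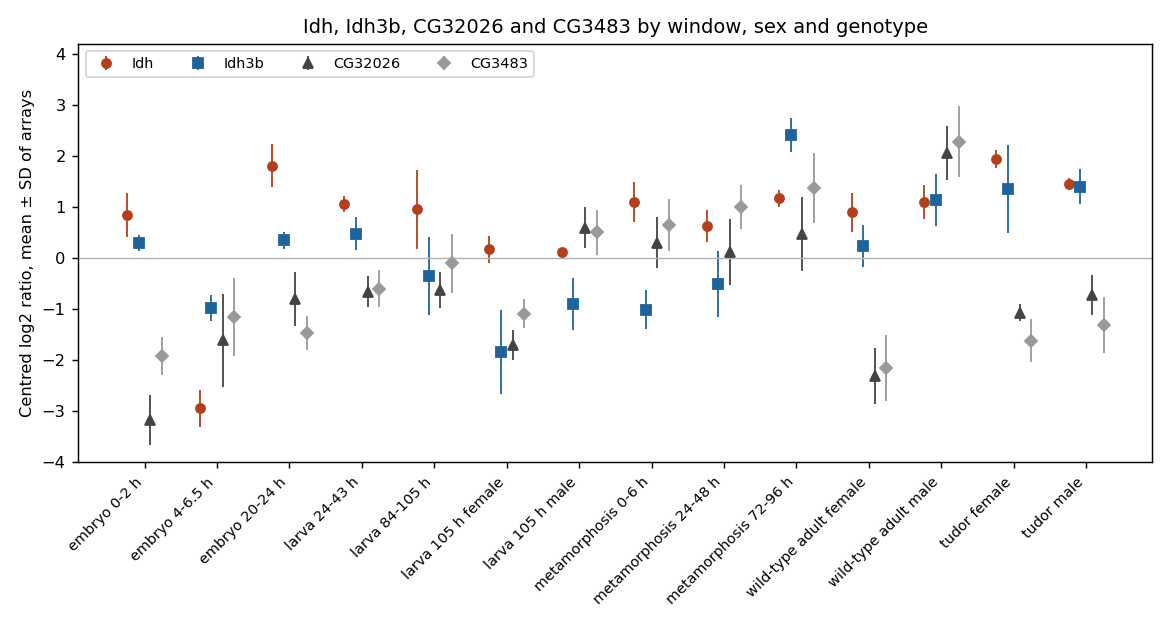
Mean centred log2 ratio with SD over arrays for Idh, Idh3b, CG32026 and CG3483 in each window, sex and genotype. CG32026 and CG3483 are high in wild-type males (2.06 and 2.29) and below 0 in wild-type females and in tudor flies of both sexes, whereas Idh and Idh3b are above 0 in all 4 adult sets, and levels are not comparable between genes.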

How the data were processed

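The authors deposited log2 ratios of sample over reference (12588 probes, 159 arrays), the scale being inferred from the values. Per the labels, arrays were read on a GenePix scanner and the ratio is red over green. How background was corrected and values normalized is not given in the sources used here, nor is a build, and coordinates are left out. No pair of arrays correlated below -0.26. Probe names came from the platform annotation and were brought up to date with a gene table of the Release 6 assembly (4089 matched, 48 not), and 159 probes with several names and 8292 with none were not named.

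Each array was centred on its median, and 252 values at the upper limit (above 16) were treated as missing. Probes with values on at least 80% of the arrays of a fit were tested with limma (3.58.1, R 4.3.3, data.table package 1.17.8), with the slide set as a term, two-sided, Benjamini-Hochberg adjustment and a threshold of 0.05. Window comparisons used only the arrays of those windows, larval sexes all 24 larval arrays, adult sexes and slopes 32 and tudor 40, with flies of 0-24 h set at 0.5 d. Called shares count probes past the threshold in a direction. The fits were tested on simulated data. Differences of Idh minus Idh3b were tested by permutation (SciPy 1.17.1). Fits with 1 array left out were computed for the members with the variance prior of the full fit, and passed where their unadjusted p lay under the largest that passed there. Named genes were the members, the 5 genes most alike by Pearson's r over group means, and up to 4 per list and comparison. Where a gene had several probes, that with the most values was read. The array files give no counts, and the number of arrays limits the precision. The members, lists and arrays left out were chosen with earlier results of these data known, so no list count is independent support. Alternatives covered scaling, filters, slide sets, blocks, ages and left-out arrays. Group and time come from the titles, also where a scan comment disagrees. The array with no letters in its slide number, embryo 6-7 h replicate 2, was placed in slide set B.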

Additional observations from a re-analysis of the deposited data

Results flagged for a closer look

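Some values stood apart from the arrays around them. In the window of 0-2 h the Idh value of embryo 0-1 h replicate 1, 1.62, lay far above the other 5 arrays, and so did the Idh3b value of embryo 1-2 h replicate 1, 0.59, above its own 5. In larvae of 24-43 h the Idh value of 24 h replicate 2, 1.36, lay far above the rest. These were 3 of 26 sets of 4 to 10 arrays examined, where chance alone marks about 1 in 20, and these windows pool neighbouring ages, so an array may also differ by age. Without each of them the calls of the comparisons they enter were unchanged. The effect of tudor on Idh3b differed between the sexes by -1.23, male minus female, as a test of the difference itself, with Idh3b higher in tudor than in wild-type females and a value of -0.50 in males.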

How the results depend on the processing

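For 50 tested results 479 values were recomputed under other settings. Of these 437 kept their side of the threshold, 34 lost the call, 8 gained one and 0 of the called values reversed. Some of the 437 changed sign where neither setting passed, as Idh between the adult sexes did (0.20, and -0.03 without centring). The F values have no direction. The probe could not be exchanged, as each gene had 1. For 4-6.5 h against 0-2 h in slide set A alone Idh was -4.47 and Idh3b -1.25, and for young larvae against late embryos Idh was -0.92 (adjusted p 0.0506). Idh3b in late against young larvae passed without centring (-0.98), in slide set B (-1.13) and with every time point (-0.83), and male minus female larvae with the slide as a block (0.93). Idh at 24-48 h of metamorphosis lost its call with quantile normalization (-0.45), values on 50% of arrays (-0.48), no slide set term (-0.47), slide set A (-0.42) or B (-0.53), the slide as a block (-0.51), every time point (-0.41) and no replicate 1 arrays at 20 to 80 h (-0.53). At 72-96 h Idh lost it with quantile normalization (0.36), slide set B (0.58) and no replicate 1 arrays at 20 to 80 h (0.58). Idh3b in adults of 0-24 h passed with every time point (-1.04). Idh between the adult sexes passed in slide set A (0.52) and, without adjustment over probes, within slides (0.25, exact permutation p 0.0459). The male slope of Idh3b lost its call without centring (-0.35), with quantile normalization (-0.26), in slide set A (-0.64) and without 0-24 h (-0.31). In tudor females Idh lost it with quantile normalization (0.31) and at 0-24 h alone (0.75), and Idh3b without centring (0.57), with quantile normalization (0.33), with adults of 0-24 h and 5 d (0.73), at 0-24 h (1.35) and at 5 d (0.10). The tudor difference between sexes for Idh3b lost it without centring (-1.07), with quantile normalization (-0.55), at 0-24 h (-1.73) and at 5 d (-0.73). Among larval ages in slide set B F was 4.79 for Idh and 2.54 for Idh3b, and among times of metamorphosis without the replicate 1 arrays Idh3b had 4.58. The difference of both genes into metamorphosis was 0.68 in slide set B. The r of Tspo with Idh was -0.124 in metamorphosis alone. The cause was not tested. Fewer arrays entered the fits to a slide set, an age or the remaining arrays.

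Replicate numbers were not taken as pairing the arrays, since same-numbered deviations from the group means correlated from -0.667 to 0.799. With a replicate block Idh3b in late against young larvae passed (-0.83), Idh at 24-48 h of metamorphosis did not (-0.47), and no other call changed. Among 584 fits with 1 array left out 21 changed a call. Ranges were -1.06 to -0.55 (Idh3b, late larva), -0.92 to -0.45 (Idh3b into metamorphosis), -0.57 to -0.40 (Idh at 24-48 h), 0.16 to 0.25 (Idh, adult sexes, gained without female 25 d or 30 d replicate 1), 0.39 to 0.85 (Idh3b, tudor females) and -0.95 to -0.65 (Idh, tudor between sexes, gained without female 0-24 h replicate 2).

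Without centring the share of calls that were higher went from 60.9 to 49.5% (4-6.5 h), 53.1 to 38.1% (young larva), 44.6 to 25.9% (late larva), 47.5 to 77.6% (into metamorphosis), 54 to 40.9% (adult sexes), 46.9 to 70.7% (male slope), 40.4 to 66.7% (slope difference) and 64.1 to 51.0% (tudor females). The number of probes called over the array differed by over 1.5 times in some settings. In slide set A it went from 3698 to 0 (4-6.5 h), 4886 to 3066 (20-24 h), 3235 to 955 (young larva), 2063 to 70 (late larva), 179 to 838 (new adults), 597 to 6 (female slope), 744 to 111 (male slope) and 94 to 0 (slope difference). In slide set B it went from 2241 to 600 (into metamorphosis), 2050 to 450 (24-48 h), 179 to 12 (new adults), 3412 to 16 (larval ages), 5501 to 3572 (embryo collections) and 1355 to 569 (times of metamorphosis). With replicate 1 left out at 20 to 80 h the new adults had 9 and 24-48 h 715. Without 0-24 h, and without 25 and 30 d, the female slope had 88 and 89 and the male slope 361 and 203. With a replicate block they had 1511 and 1194. Larval sexes ranged from 146 (slide set B) to 447 (slide as a block) around 240. At 0-24 h alone tudor had 584 calls in females (2645 at both ages) and 653 in males (1589), and the difference 386 (1510).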
